A study of Sus scrofa with 9 samples.

Results

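IBSP, SPP1, SPARC, ALPL, SP7 and PHOSPHO1 are genes of mineralised tissue, and their expression was followed in the additional molar germs of miniature pigs. They were chosen by name, with earlier results of these data known. All probe sets of the array whose only gene symbol was one of these names were taken, which gave 8 probe sets for 6 genes, of 23999 probe sets tested and 6765 genes named. IBSP, SPP1, ALPL and PHOSPHO1 had 1 probe set each, and SPARC and SP7 had 2 each. Where a gene had 2, the one brighter on average over the arrays (mean log2 signal) stood for it.

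The germs came from the mandibles of Wuzhishan miniature pig embryos of 3 ages, embryonic day 50 (E50), 60 (E60) and 70 (E70). Each age had 3 arrays, 9 in total. Additional molars are the permanent molars, which have no milk predecessor. As the authors describe these ages, the first of them was a cap at E50, a bell at E60, by which time the tooth behind it was beginning to form, and a late bell at E70. The labels name no treatment or mutation in any group. Arrays of 1 stage are labelled as biological replicates. The methods describe RNA pooled from germs of 1 stage and litter, so the sources used here do not say how many litters a stage comprised, and the p-values measure only the spread between these arrays.

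Mineralised tissue is laid down by osteoblasts in bone and by odontoblasts in dentin. These cells secrete a collagen scaffold with acidic, calcium-binding proteins, among them bone sialoprotein (IBSP), osteopontin (SPP1) and osteonectin (SPARC). Mineral forms where phosphate is set free: tissue-nonspecific alkaline phosphatase (ALPL) breaks down pyrophosphate, an inhibitor of mineral, and PHOSPHO1 releases phosphate inside matrix vesicles. SP7, also called osterix, is a transcription factor that osteoblasts need for their differentiation. In a developing jaw the alveolar bone around a germ mineralises while the germ is still soft. Fewer cells of a type and less RNA per cell cannot be told apart in such bulk samples.

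The E50 arrays stood apart from the others in their controls. The geometric mean signal of the hybridisation spike-ins was 63310 on the E50 arrays, 4227 on the E60 arrays and 3571 on the E70 arrays, although every array had been scaled to 1 mean. The quality control gene EF1A had a 3′ signal over 5′ signal of 49.3 to 55.8 on the E50 arrays, 1.42 to 1.56 on the E60 arrays and 1.35 to 1.47 on the E70 arrays. Within a stage, pairs of arrays had a Pearson's r of 0.605 to 0.683 at E50 and of 0.901 to 0.921 at E60 and E70, taken over probe sets, which do not count as independent replicates. The background of an array, set here as the 95th percentile of 23 probe sets for foreign sequences, was 77.7 to 379 at E50 and 37.9 to 55.8 later. In every comparison with E50 these differences cannot be told apart from the stage, whereas E70 and E60 were closer to each other in them. The poly-A spike-ins also differed between E70 and E60, with a geometric mean of 3565 to 4195 on the E50 arrays, 1367 to 1392 on the E60 arrays and 597 to 613 on the E70 arrays. The part of these control differences in the lower signals at E70 was not tested. As for the tissue label, the 3 measured dental mesenchyme markers (MSX1, TFAP2B and VIM) and the 2 measured dental epithelium markers (CDH1 and EPCAM) were above background on all 9 arrays. Of the 5 measured ameloblast markers, none was above background on all 3 arrays at E50 or E60 and 2 were at E70.

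Over the 3 stages IBSP was highest at E60 and lowest at E70, SPP1 overlapped between E60 and E50 and was lower at E70, the SPARC arrays lay lower at each later stage, and ALPL was highest at E70. PHOSPHO1 was above background on all 9 arrays but varied widely at E50, and each SP7 probe set was above background on 2 of 9. By limma's moderated F test over the 3 stages, with Benjamini-Hochberg adjustment over all probe sets, 4 of the 6 genes passed an adjusted p of 0.05 (IBSP, SPP1, SPARC and ALPL), where 17.7% of all probe sets did. An exact permutation test of the F statistic of each gene over the 280 ways to split 9 arrays into 3 stages gave p = 0.00357, the smallest these arrays allow, for IBSP, SPARC and ALPL, p = 0.0286 for SPP1, p = 0.0321 for SP7 and p = 0.0571 for PHOSPHO1, none of them adjusted for the 6 genes tested.

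**Figure D1:**
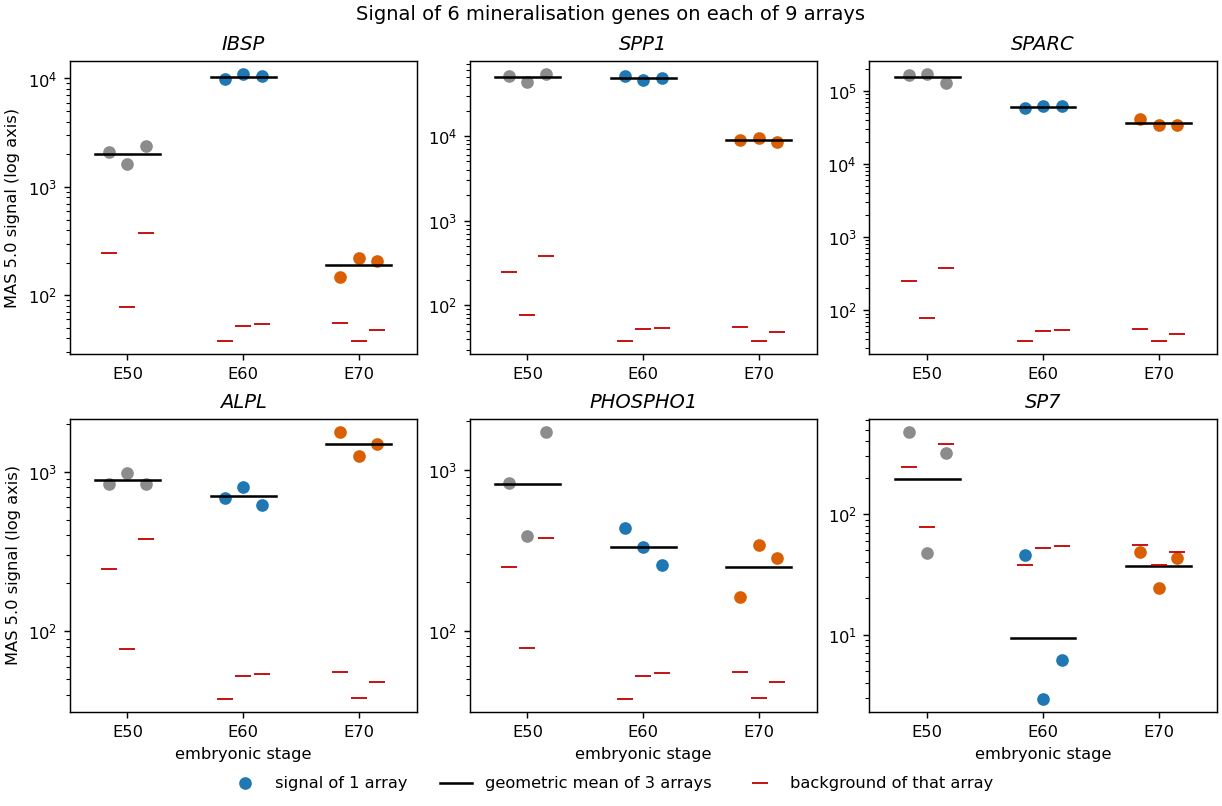
MAS 5.0 signal (log axis) of the 6 genes on each array at E50, E60 and E70, 3 arrays per stage, with the geometric mean of a stage as a black line and the background of each array as a red dash. The IBSP signal lies near 192 at E70 and near 10406 at E60, the SPP1 signal near 8974 at E70 and near 48590.4 at E60, and SP7 lies at or below background on 7 of 9 arrays.

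IBSP encodes bone sialoprotein, an acidic phosphoprotein of bone and dentin that binds hydroxyapatite and, through an RGD sequence, integrins. Its probe set (Entrez gene 397137) read 2100.4, 1626 and 2385 on the E50 arrays, 9837, 10896 and 10485 on the E60 arrays and 146, 222 and 206 on the E70 arrays. No stage overlapped another: every E60 array was above every E50 array, every E70 array was below both, and the E60 arrays agreed best. The stage means were 2037 ± 383 at E50, 10406 ± 534 at E60 and 192 ± 40.1 at E70 (SD, n = 3 each). At E70 the signal was still above the background of each array, so the level was measured and is no bound.

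IBSP was 5.17-fold higher at E60 than at E50 (log2 change 2.37, SE 0.26, limma adjusted p = 0.00241). It was 55.1-fold lower at E70 than at E60 (log2 change -5.79, SE 0.26, adjusted p = 0.00054), which gave it rank 1 by p among the 23999 probe sets in that step. Against E50, the E70 signal was 10.7-fold lower (log2 change -3.42, SE 0.26, adjusted p = 0.000531). The change at E70 differed from the change at E60 by -8.15 (SE 0.45, adjusted p = 0.00341), a test of the difference between the 2 steps. Each of the 3 pairwise changes of IBSP passed the test under all 18 alternative settings, with the E70 minus E60 change between -5.90 and -5.56. A fit with the replicate number as a block took the difference between the steps to an adjusted p of 0.0556.

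SPP1 encodes osteopontin, a secreted phosphoprotein of bone and dentin that binds mineral and integrins and that macrophages and osteoclasts make as well as osteoblasts. Its probe set read 51627, 43682 and 53388 on the E50 arrays, 51313, 46034 and 48424 on the E60 arrays and 9054, 9406 and 8461 on the E70 arrays. The E60 and E50 arrays overlapped, and all E70 arrays lay far below them. SPP1 was 5.41-fold lower at E70 than at E60 (log2 change -2.44, SE 0.20, adjusted p = 0.00468, rank 17 by p), with means of 8974 ± 477 at E70 and 48590.4 ± 2644 at E60 (SD, n = 3 each). Against E50 it was 5.51-fold lower at E70 (log2 change -2.46, SE 0.20, adjusted p = 0.000649).

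Between E60 and E50 SPP1 had a log2 change of -0.02 (SE 0.20, adjusted p = 0.944), whose sign rested on the scaling: the change was 1.07 after quantile normalization (adjusted p = 0.023) and 0.75 after centring each array on its median (adjusted p = 0.0516). The change at E70 minus that at E60 was -2.41 (SE 0.35, adjusted p = 0.0302), and this call was lost on leaving out any 1 of the E60 or E70 arrays (adjusted p 0.0806 to 0.156). IBSP and SPP1 thus both had lower signal at E70 in every array, while only IBSP passed the test between E60 and E50 as the arrays were scaled by the authors.

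SPARC encodes osteonectin, a collagen-binding glycoprotein that is abundant in bone and dentin and is also made by many other mesenchymal cells. Its brighter probe set read 163345, 166256 and 126676 on the E50 arrays, 57200.1, 60805 and 60962 on the E60 arrays and 40509.7, 33931 and 33459 on the E70 arrays. The stages did not overlap and each later stage was lower than the one before. SPARC was 2.53-fold lower at E60 than at E50 (log2 change -1.34, SE 0.22, adjusted p = 0.00834) and 4.21-fold lower at E70 than at E50 (log2 change -2.07, SE 0.22, adjusted p = 0.00142). Between E70 and E60 its log2 change of -0.73 (SE 0.22, adjusted p = 0.365) did not pass.

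The direction of SPARC between E60 and E50 depended on how the arrays were scaled: its change was 0.49 after quantile normalization (adjusted p = 0.137) and -0.57 after median centring (adjusted p = 0.198). Relative to the median change of all probe sets, it was -1.16 as deposited and 0.48 after quantile normalization. Quantile normalization also ended the call at E70 against E50, with a change of -0.52 (adjusted p = 0.114), and median centring left it at -1.37 (adjusted p = 0.0151). Of the 3 dental mesenchyme markers, VIM (adjusted p = 0.0418) and MSX1 (change -1.03, adjusted p = 0.0295) were also lower at E60 against E50. In that step 10.6% of all probe sets were. The other MSX1 probe set had a change of 1.42 and did not pass (adjusted p = 0.43). TFAP2B had a change of 0.32 and did not pass (adjusted p = 0.321), with every E60 array above every E50 array. These marker values are given only as the arrays were scaled by the authors. The 3 together summed to 59913 to 63681 at E60 and 114369.6 to 125953 at E50. VIM made up most of this sum, with a mean of 58501 at E60 and 117237 at E50. The part of these markers in the SPARC signal was not tested. The other SPARC probe set had a signal of 9.5 to 27.8 and was below background on all 9 arrays.

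ALPL encodes tissue-nonspecific alkaline phosphatase, the enzyme whose loss in humans causes soft bones and early loss of teeth. Its probe set read 838, 985 and 844 on the E50 arrays, 689.5, 807 and 621 on the E60 arrays and 1779, 1255 and 1502 on the E70 arrays. All E70 arrays were above all others, and all E60 arrays were below all E50 arrays by a small margin. ALPL was the only 1 of the 6 genes whose arrays were all brighter at E70 than at both other stages. ALPL passed the F test over the 3 stages (adjusted p = 0.0369) but none of the pairwise tests. Its log2 change was 1.09 (SE 0.23, 2.13-fold, adjusted p = 0.173) at E70 against E60, 0.76 (SE 0.23, 1.69-fold, adjusted p = 0.0625) at E70 against E50 and -0.34 (SE 0.23, adjusted p = 0.347) at E60 against E50, the last of which was 0.44 after median centring. The E70 minus E60 change passed when arrays were weighted by their spread (adjusted p = 0.0164) and with a trended, robust prior (adjusted p = 0.0139). The E70 minus E50 change passed under 5 of 18 settings: median centring (change 1.47, adjusted p = 0.0108), the trended, robust prior (adjusted p = 0.0142), the filter on dim probe sets (adjusted p = 0.0288), a pseudocount of 32 (adjusted p = 0.0448) and a floor of 16 (adjusted p = 0.0492).

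PHOSPHO1 encodes the phosphatase that frees phosphate from phosphocholine and phosphoethanolamine in matrix vesicles. Its probe set read 821, 389 and 1715 on the E50 arrays, 435, 333 and 255 on the E60 arrays and 163, 339 and 284 on the E70 arrays. The E50 arrays differed among themselves by more than the stages did, and the E60 arrays overlapped with both other stages. Its log2 changes were -1.30 (SE 0.56, adjusted p = 0.151) at E60 against E50, -0.41 (SE 0.56, adjusted p = 1.0) at E70 against E60 and -1.71 (SE 0.56, adjusted p = 0.0752) at E70 against E50. Without the second E50 array the changes against E50 passed, at -1.83 for E60 (adjusted p = 0.0369) and -2.24 for E70 (adjusted p = 0.0197).

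SP7 was at or below background on most arrays, on both of its probe sets. On the brighter one it had 479, 47.4 and 321 on the E50 arrays, 45.7, 2.95 and 6.15 on the E60 arrays and 48.4, 24.5 and 43.5 on the E70 arrays, and exceeded the background of the array on 2 of 9, 1 at E50 and 1 at E60. On the dimmer one it had 17.7, 15.8 and 39.4 on the E50 arrays, 86.2, 87.6 and 10.5 on the E60 arrays and 21.1, 31.6 and 21.6 on the E70 arrays, and exceeded background on 2 of 9, both at E60. The probe sets moved in opposite directions. On the brighter one the log2 change of E60 against E50 was -4.37 (SE 1.18, adjusted p = 0.0418), which passed although most of its values were not above background, and on the dimmer one it was 0.94 (SE 0.84, adjusted p = 0.462). The call of the brighter probe set was lost under 10 of the 17 other fits. No fold is given for SP7, since neither probe set was above background on all arrays of any stage.

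Read against all probe sets, the counts of the 6 genes were as follows. At E60 against E50, IBSP was higher and SPARC and SP7 were lower, so 3 of 6 passed, where 18.5% of all probe sets did (7.85% higher and 10.6% lower). Without dim probe sets, SP7 among them, 2 passed, beside 4744 of the 17101 probe sets left. After median centring 1 did, beside 5590 of the 23999 probe sets. At E70 against E60, IBSP and SPP1 were lower and none was higher, so 2 of 6 passed, where 0.421% of all probe sets did (0.0833% higher and 0.338% lower). At E70 against E50, IBSP, SPP1 and SPARC were lower, so 3 of 6 passed, where 18.8% did (8.16% higher and 10.6% lower). The median log2 change of the 6 genes was -0.82 at E60 against E50, -0.57 at E70 against E60 and -2.23 at E70 against E50, beside medians of -0.18, 0.05 and -0.11 over all probe sets. Centring each array on its median moved the median change of all probe sets at E60 against E50 to 0.60 and the share of calls that were higher to 83.7%, as against 42.5% as deposited. For E70 against E50 that share was 80.6% after centring and 43.4% as deposited.

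**Figure D2:**
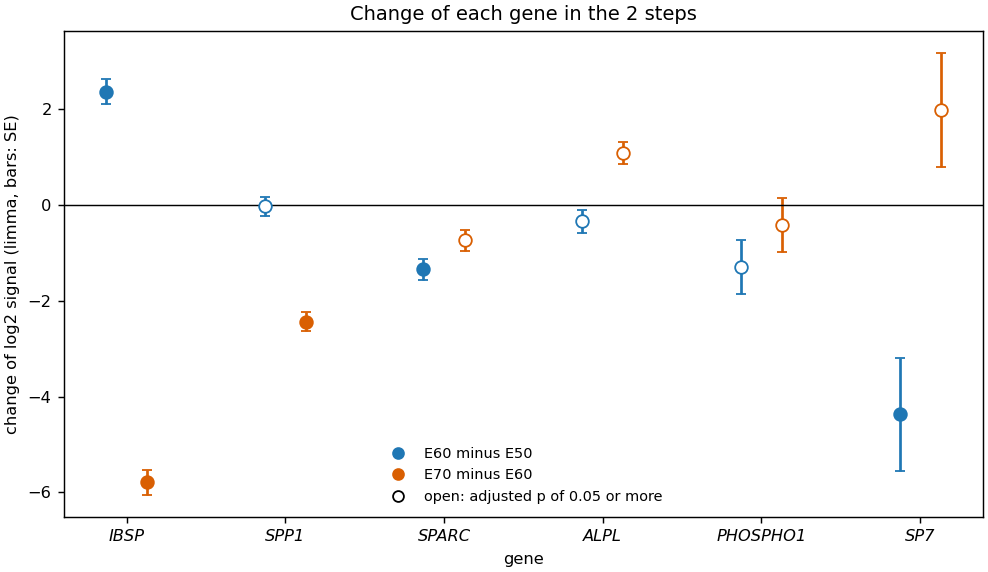
Change of log2 signal of each gene from limma, E60 minus E50 (blue) and E70 minus E60 (orange), with bars for the SE from the fit of 9 arrays and filled points for an adjusted p under 0.05. IBSP has 2.37 and then -5.79, SPP1 is near 0 and then at -2.44, and ALPL is the only gene above background with a positive change in the E70 minus E60 step.

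Other genes of mineralised tissue were grouped in 4 lists by their role. Of 15 bone and dentin matrix genes, 10 were measured. At E60 against E50, where 18.5% of all probe sets passed, 1 was higher and 2 were lower, and 7 did not pass, with a median change of 0.12. Lumican (LUM), a small leucine-rich proteoglycan that binds collagen, rose to 19268 ± 2960.1 at E60, against 7175 ± 972 at E50 (SD, n = 3 each; log2 change 1.42, adjusted p = 0.00934). Matrix Gla protein (MGP), an inhibitor of calcification, fell to 9697 ± 546 at E60, against 39815 ± 9754 at E50 (change -2.01, adjusted p = 0.00433). Biglycan (BGN), a proteoglycan of bone and dentin, fell to 1672 ± 61.3 at E60, against 4442 ± 656 at E50 (change -1.40, adjusted p = 0.00626).

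At E70 against E60 MGP was the only gene of the matrix list to pass, 1 of 10, where 0.421% of all probe sets did. It had 563 ± 95.6 at E70, against 9697 ± 546 at E60 (SD, n = 3 each; log2 change -4.12, SE 0.27, adjusted p = 0.00216). The median change of the 10 matrix genes was -1.24. Osteocalcin (BGLAP), a late marker of osteoblasts, had a mean of 105 at E50, where no array was above background, 284 at E60 and 63.8 at E70, and its E70 minus E60 change of -2.18 (adjusted p = 0.581) did not pass, although the arrays of these stages did not overlap. COL1A2, a chain of the collagen that bone and dentin are built on, had a change of -1.59 (adjusted p = 0.0732) in that step. At E70 against E50, where 18.8% of all probe sets passed, 5 of the 10 were lower, none was higher and 5 did not pass. Those with the largest changes among the 5 were MGP (-6.13, adjusted p = 0.000172), DMP1 (-4.75, adjusted p = 0.0298), BGN (-2.23, adjusted p = 0.000996) and COL5A1 (-1.03, adjusted p = 0.0195). COL5A2, which did not pass, had a change of 3.31 (adjusted p = 0.19) on a probe set above background on only 1 of the 3 E50 arrays. Its other probe set had a change of -0.82 (adjusted p = 0.47). DMP1, an acidic matrix protein of odontoblasts and osteocytes, was on this probe set above background on no E70 array and on 2 of the 3 E50 arrays.

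Of 11 genes of phosphate and mineral handling 5 were measured. The inorganic pyrophosphatase PPA1 rose to 2085 ± 211 at E60, against 929 ± 280.2 at E50 (SD, n = 3 each; log2 change 1.21, adjusted p = 0.0263), and no other passed in that step, so 1 of 5 did, where 18.5% of all probe sets did. None of the 5 passed at E70 against E60. ENPP1, which makes the pyrophosphate that ALPL breaks down, averaged 549 ± 42.7 at E70 and 1177 ± 68.9 at E60 (change -1.10, adjusted p = 0.183), and was lower at E70 than at E50 (change -1.11, adjusted p = 0.0198). ALPL and ENPP1, with opposed roles, thus had higher and lower signal at E70 in every array than at E60, and neither change passed. At E70 against E50 PPA1 was higher, ENPP1 and annexin A5 (ANXA5), a calcium-dependent lipid-binding protein of matrix vesicles, were lower, and 2 did not pass, so 3 of 5 did, beside 18.8% of all probe sets.

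Of 18 regulators of osteoblasts and odontoblasts 6 were measured. At E70 against E60 the ligand BMP4 rose to 3762 ± 867 at E70, against 1086 ± 205 at E60 (SD, n = 3 each; log2 change 1.79, SE 0.26, adjusted p = 0.0447), and 5 did not pass, beside 0.421% of all probe sets that did. Connexin 43 (GJA1), the gap junction protein of osteoblasts and odontoblasts, rose to 27198 ± 3719 at E60, against 11616 ± 2892 at E50 (change 1.25, adjusted p = 0.0184), the only 1 of the 6 to pass in that step, where 18.5% of all probe sets did. At E70 against E50 BMP4 (2.25, adjusted p = 0.00196), GJA1 (1.81, adjusted p = 0.0047) and the homeobox gene DLX5 (0.88, adjusted p = 0.0341) were higher and 3 did not pass, where 18.8% of all probe sets did pass. The median change of the 6 was 0.73 at E70 against E60.

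Of 7 receptor genes for osteopontin and bone sialoprotein 5 were measured. The integrin chain ITGAV rose to 3278 ± 219.7 at E60, against 814 ± 366 at E50 (SD, n = 3 each; log2 change 2.14, adjusted p = 0.0113), and was at 3001 ± 195 at E70. It was the only 1 of the 5 to pass at E60 against E50, where 18.5% of all probe sets did. None of the 5 passed at E70 against E60. ITGB3, the partner of ITGAV in the integrin by which osteoclasts hold on to bone, had 715 ± 364 (E50), 484 ± 78.2 (E60) and 114 ± 26.8 (E70), and was lower at E70 than at E50 (change -2.51, adjusted p = 0.0104). The change of ITGB3 at E70 against E60 was -2.11 (adjusted p = 0.18).

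**Figure D3:**
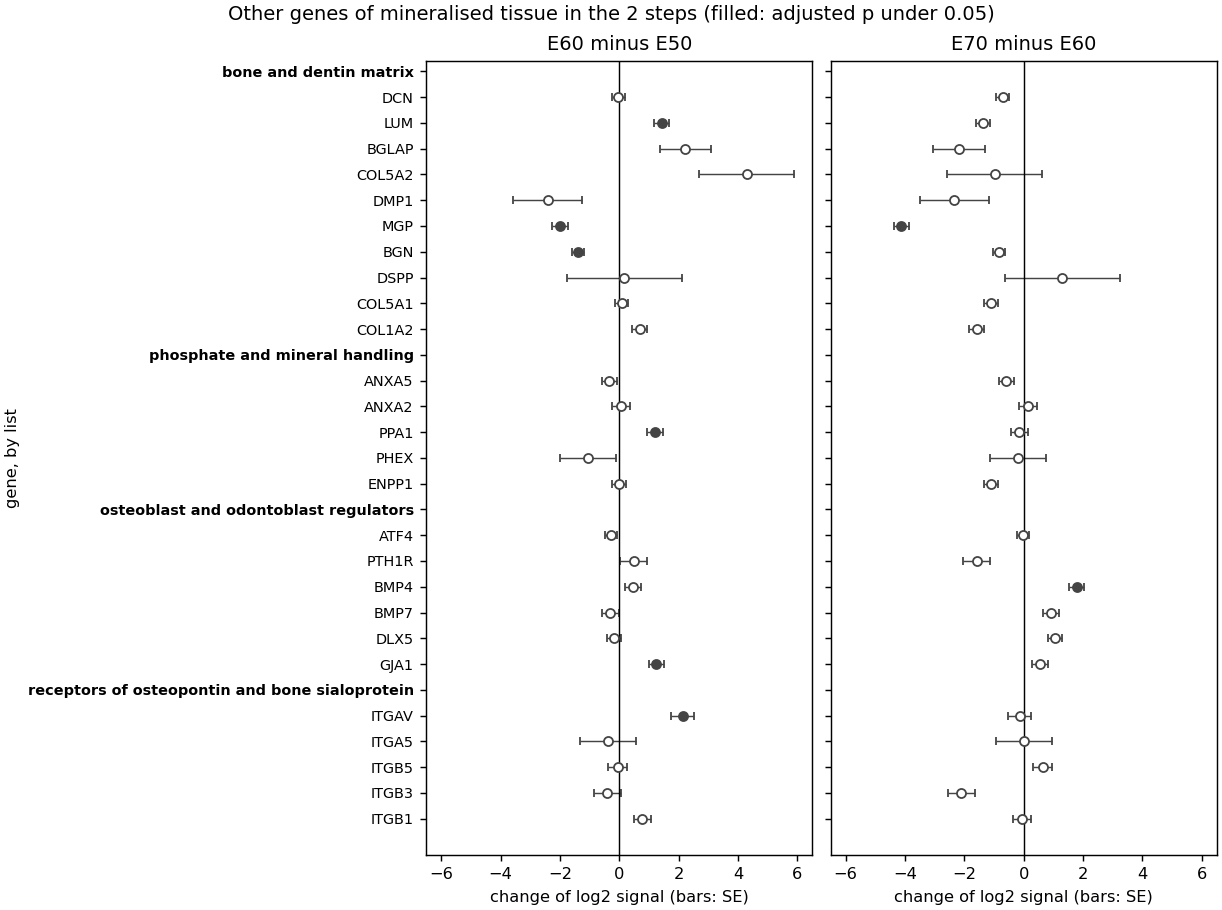
Change of log2 signal of the 26 measured genes of the 4 lists in the E60 minus E50 step (left) and the E70 minus E60 step (right), with bars for the SE and filled points for an adjusted p under 0.05. In the E70 minus E60 step MGP (-4.12) and BMP4 (1.79) are the filled points.

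Summed signals of marker lists for other cell types of the jaw differed between E70 and E60 in both directions. The markers that passed in that step were all lower at E70, where 0.421% of all probe sets passed (0.0833% higher and 0.338% lower). Of the 7 measured osteoclast markers, 2 fell at E70 against E60 and none rose: the tartrate-resistant acid phosphatase ACP5 had 251 ± 16.2 at E70 and 3072 ± 171 at E60 (SD, n = 3 each; log2 change -3.62, adjusted p = 0.00132), and the proton pump subunit ATP6V0D2 was below background on all E70 arrays, at least 9.49-fold lower than at E60 (adjusted p = 0.0052). The summed signal of the 7 was 2457 to 5105 on the E70 arrays and 13559 to 15529 on the E60 arrays, and 16973 to 19658 at E50. The cathepsin CTSK made up most of what was left, with 3342 ± 1315 at E70 and 10789 ± 956 at E60 (change -1.77, adjusted p = 0.132).

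Of the 5 skeletal muscle markers 2 fell at E70 against E60, where 0.421% of all probe sets passed, with a summed signal of 363 to 435 at E70 and 1544 to 1813 at E60. Of the 5 macrophage markers 2 fell, with 682 to 862 at E70 and 1584 to 1772 at E60, and of the 5 ameloblast markers none passed, with 711 to 886 at E70 and 198 to 235 at E60. Of the 7 cartilage markers 1 fell, the proteoglycan aggrecan (ACAN), with 115 ± 23.4 at E70 and 448 ± 85.6 at E60 (change -1.97, adjusted p = 0.042). The other ACAN probe set went the other way and did not pass (change 1.04, adjusted p = 0.96). The sum of the cartilage markers was higher, 3702 to 5226 at E70 and 1750.4 to 2029 at E60. HAPLN1, a link protein of cartilage, made up most of the sum at E70, with 3767 ± 917 at E70 and 939 ± 107 at E60 (change 1.98, adjusted p = 0.0791). None of the 6 endothelium markers passed in that step, with 1758 to 2076 at E70 and 3183 to 3581 at E60. The dental epithelium markers summed to 4413 to 4984 at E70 and 2003 to 2269 at E60, and neither passed. The markers not above background on any E70 array were ATP6V0D2 (osteoclast), TNNT3 (muscle), COL10A1 (cartilage), KDR (endothelium) and HBE1 (red blood cell). Of these, only ATP6V0D2 was above background on all E60 arrays. The part of these cell types in the lower signal of IBSP and SPP1 at E70 was not tested.

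At E60 against E50, where IBSP rose, the osteoclast markers summed to 13559 to 15529 at E60 and 16973 to 19658 at E50, with 1 of 7 higher, and the muscle markers to 1544 to 1813 at E60 and 5166 to 7754 at E50, with 3 of 5 lower. In that step 7.85% of all probe sets passed as higher and 10.6% as lower. Of the 5 macrophage markers 1 was higher and 3 were lower. The higher genes, NFATC1 of the osteoclast list and C1QA of the macrophage list, were below background on every E50 array. Their E60 means of 96.5 and 128 lay within the range of the E50 backgrounds, 77.7 to 379, so no rise is read from these calls. The part of these cell types in the E60 signal of IBSP was not tested.

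**Figure D4:**
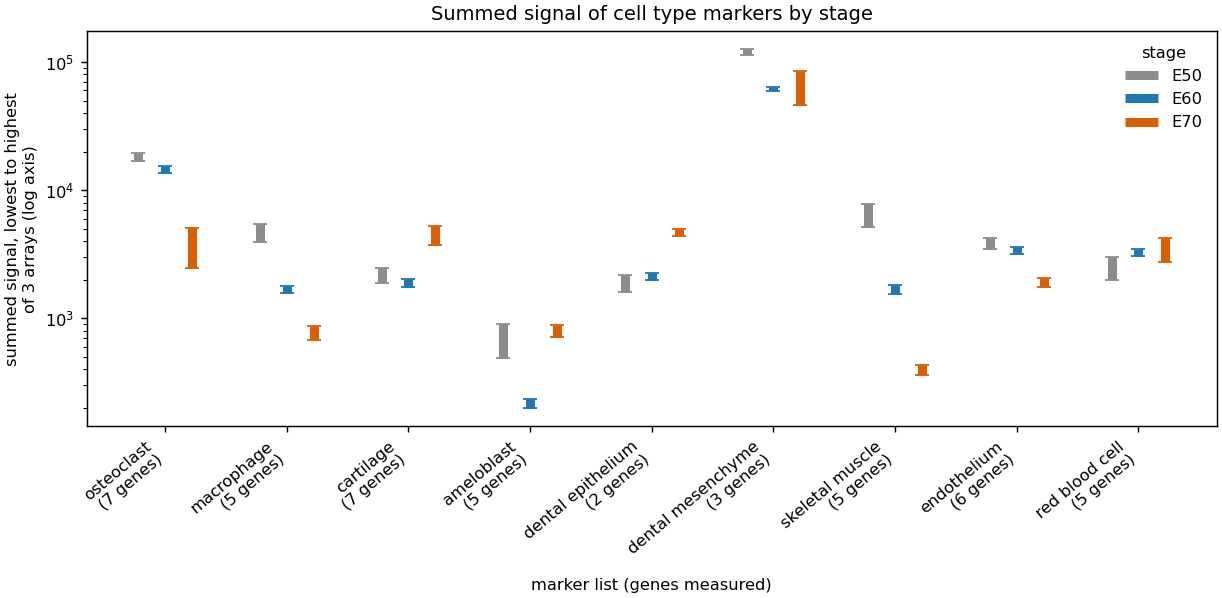
Summed MAS 5.0 signal (log axis) of the measured genes of 9 marker lists at E50, E60 and E70, each bar running from the lowest to the highest of 3 arrays. The osteoclast bar lies at 2457 to 5105 at E70, below 13559 to 15529 at E60, and the skeletal muscle bar at 363 to 435 at E70, below 1544 to 1813 at E60.

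The genes whose log2 signal went most like that of each member over the 9 arrays were sought among 3600 genes that were above background on every array, as a description in which the arrays share their stages, so that any gene with the same order of stages scores high. For IBSP these were ASPN (r = 0.993), which encodes the collagen-binding protein asporin, THBS2 (r = 0.975), which encodes the matrix protein thrombospondin 2, and LOX (r = 0.974), which encodes lysyl oxidase, the enzyme that cross-links collagen. The mean signal of ASPN was 5822 ± 1258 on the E50 arrays, 20414 ± 686 on the E60 arrays and 944 ± 72.8 on the E70 arrays (SD, n = 3 each). For SPP1 they were ACP5 (r = 0.991), the sphingosine phosphate receptor S1PR1 (r = 0.975) and the adhesion molecule VCAM1 (r = 0.975). ACP5 is the osteoclast marker described above.

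For SPARC they were BGN (r = 0.994), the apolipoprotein gene APOA1 (r = 0.990) and MKKS (r = 0.988), a chaperonin-like gene. BGN is on the matrix list, and its arrays, like those of SPARC, lay lower at each later stage as the authors scaled them. For SPARC the direction between E60 and E50 depended on that scaling, as given above. For ALPL they were ALYREF (r = 0.952), ID3 (r = 0.948) and MTHFD1 (r = 0.947), and for PHOSPHO1 STBD1 (r = 0.952), FAM210B (r = 0.939) and PMEPA1 (r = 0.936). Among the members themselves r was 0.907 between IBSP and SPP1, -0.953 between IBSP and ALPL and -0.908 between SPP1 and ALPL. SP7 was not compared, since it was not above background on every array.

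**Figure D5:**
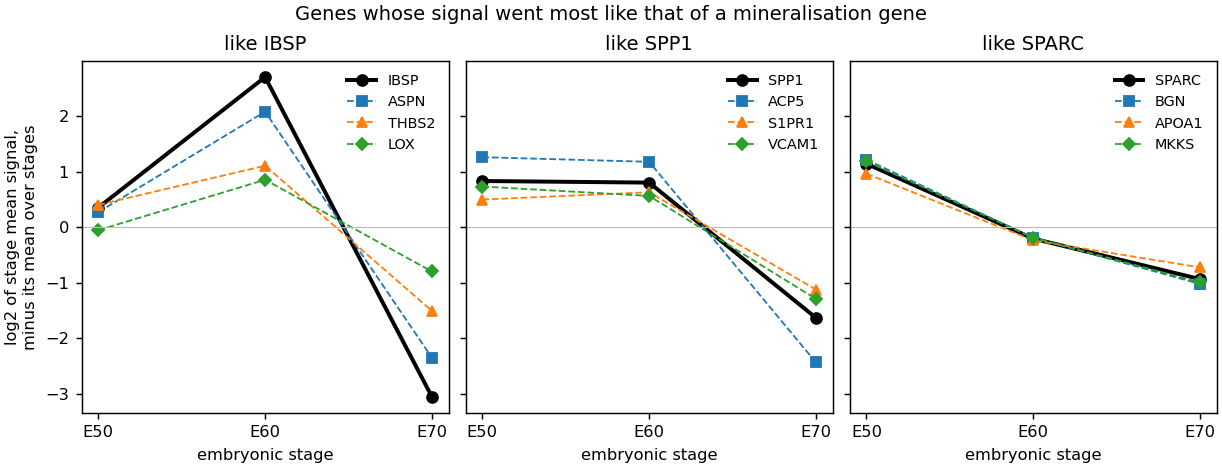
Log2 of the mean signal of 3 arrays per stage, minus the gene's mean over E50, E60 and E70, for IBSP, SPP1 and SPARC (black) and the 3 genes most like each by Pearson's r over 9 arrays (dashed). ASPN, like IBSP, is highest at E60, and ACP5, like SPP1, differs little between E60 and E50 and is low at E70.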

How the data were processed

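Germ RNA of the 3 stages, on 3 arrays each, had been hybridised to the Affymetrix Porcine Genome Array. The deposited table holds MAS 5.0 intensity values made by the authors, on a linear scale and scaled to 1 mean per array; the labels name MAS5 without a version. Stages were taken from the sample labels. Precision is limited by the number of arrays and by how far a signal stood above background.

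Signals were taken as log2, with a floor of 1. Of 24123 probe sets, 124 array controls were left out and 23999 were tested with limma 3.58.1 in R 4.3.3 (lmFit on 3 stage means, eBayes), with Benjamini-Hochberg adjustment over all of them and a call at an adjusted p under 0.05. Symbols came from the annotation table of the platform, which gave 1 symbol to 10069 probe sets. A bound replaces the fold for a probe set that no array of 1 stage and every array of the other measured above background: the bright stage's geometric mean over, per array of the dim stage, the higher of its background and its signal. Exact tests ran in Python 3.11.15 with NumPy 2.4.6, pandas 2.3.3 and Matplotlib 3.10.9. The fit was also run on simulated data with known changes. These carried the spread of each stage but not the control differences of the E50 arrays, and no result here rests on them.

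Named were the 6 members on every probe set, up to 4 called genes per pathway list and step, counts and sums of marker lists, and the 3 genes most like each member. BGLAP, COL1A2, ENPP1, ITGB3, ACP5, ATP6V0D2, CTSK, NFATC1, C1QA, TNNT3, ACAN, HAPLN1, COL10A1, KDR, HBE1, COL5A2 and the tissue markers were added after their values were seen. The members and lists were chosen with earlier results of these data known. Alternatives were 2 scalings between arrays, a floor of 16, a pseudocount of 32, a filter on dim probe sets, array weights, a trended robust prior, the replicate number as a block, 2 stages alone, leaving out each array, and the other probe set of a gene.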

Additional observations from a re-analysis of the deposited data

How the results depend on the processing

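IBSP kept direction and call in its 3 pairwise changes under every setting tried, and SPP1 kept its E70 minus E60 fall, losing only the call with the replicate block (change -2.44 as before, adjusted p = 0.0651). Replicate numbers did not pair the arrays (correlations of same-numbered deviations -0.021 to 0.026). With the replicate block 2158 probe sets passed over the 3 stages, 2811 at E60 against E50, 9 at E70 against E60 and 2944 at E70 against E50, against 4247, 4436, 101 and 4510, with 1 of the 6 genes at E70 against E60 in place of 2 and 0 in place of 2 for the difference between the steps. The causes of these and the following shifts were not tested.

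With array weights these counts of probe sets were 2510, 1871, 934 and 2015, and 4 of the 6 genes passed at E70 against E60; the trended robust prior gave 407 probe sets and 4 genes there and 5 genes at E70 against E50. Fitted on 2 stages alone they were 2087 at E60 against E50, 420 at E70 against E60 and 1877 at E70 against E50. Median centring left 1 of 3 genes at E60 against E50 and 67 probe sets at E70 against E60. Leaving out dim probe sets gave 172 at E70 against E60, of the 17101 probe sets left. Leaving out 1 array gave 2307 to 5724 probe sets over the 3 stages, 1758 to 5975 at E60 against E50, 30 to 149 at E70 against E60 and 2252 to 6116 at E70 against E50, and 1 to 2 genes for the difference between the steps; 3 to 6, 2 to 4, 2 and 3 to 4 of the 6 genes passed in the 4 comparisons.

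Reversed signs were those of SPP1 at E60 against E50 (1.07 after quantile normalization, 0.75 after median centring, 0.00198 with array weights, -0.11 to 0.032 on leaving out 1 array), of SPARC (0.49 after quantile normalization) and ALPL (0.44 after median centring) in that step, of the other SP7 probe set (0.94, -0.82 and 0.13 in the 3 comparisons), and of SPARC between the steps (-1.49 after quantile normalization and -0.24 after median centring, against 0.61). SPARC at E70 against E50 was -0.52 after quantile normalization (adjusted p = 0.114). Of the 428 values of single genes under alternatives, 379 kept direction and side of the threshold. The exact test was under 0.05 for 5 of 6 genes, and for 4 after median centring. Low signal limits SP7, and the spread of the E50 arrays limits PHOSPHO1.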

Other observations

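In the order of protein-coding genes in the RefSeq annotation of the pig assembly Sscrofa11.1, SPP1, MEPE, IBSP, DMP1 and DSPP follow each other. They are genes of acidic proteins of bone and dentin. MEPE was not measured here. The signals of IBSP and SPP1 are given above, and their neighbours were dim. The brighter DMP1 probe set gave 114, 263 and 523 on the E50 arrays, 62.2, 94.7 and 17.4 on the E60 arrays and 13.2, 1.81 and 33.6 on the E70 arrays, above background on 4 of 9. The other DMP1 probe set was above background on 3 of 9 arrays, 2 of them at E70, and its E70 minus E50 change was -0.59 (limma adjusted p = 0.734), against -4.75 (adjusted p = 0.0298) on the brighter one. Of the 3 probe sets of DSPP, the precursor of the main non-collagen proteins of dentin, 2 were below background on all 9 arrays and 1 was above it on 2, so that its level was not detectable at this signal.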
